A study of Mus musculus with 6 samples.

Results

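The ATF3 binding sites found only with HDL are 1048 regions of the mouse genome. They were chosen from the 3044 KOIN-corrected ATF3 peaks of HDL-treated macrophages, of which 1174 lie on an annotated repeat and 1870 do not. A site was selected where it lies off repeats and shares not a single base with any peak called in the 2 other conditions. The choice thus rests on measured values, since MACS peak calls in every condition, and the WT/KO tag ratio with HDL, decided which peaks were in the lists. Background for the count is the whole off-repeat HDL list, of which 56.0% were HDL-only and 822 were shared with another condition.

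ChIP-seq for ATF3 was performed in bone marrow-derived macrophages (BMDMs), primary cells grown from marrow with the growth factor M-CSF. Cells came from C57BL/6 mice of 6 to 8 weeks and were kept in culture over 6 days (M-CSF, 40 ng/ml). The groups used here are HDL-treated Atf3 +/+ (WT) and Atf3 -/- (KO) cells (HDL at 2 mg/ml for 6 h), HDL + CpG-treated WT and KO cells (the same HDL, then CpG at 100 nM for 4 h), and unstimulated WT and KO cells. Every group was precipitated with the same rabbit polyclonal anti-Atf3 antibody, and KO cells show what that antibody and the protocol bring down without ATF3. HDL carries cholesterol away from cells, and CpG DNA activates Toll-like receptor 9. The peak lists hold no expression values, so the identity of the cells could not be checked by marker levels.

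The 3 biological replicates of each group were pooled by the authors, which leaves 1 WT and 1 KO library per condition. With HDL the libraries hold 37930363 WT and 66061648 KO reads. The other 4 libraries range between 37137377 and 75534584 reads, and the 6 peak lists hold 16759 peaks. Without separate replicates no spread between mice could be taken, and treatment and library cannot be told apart. Intervals of WT/KO cover counting error only, and tests on sites compare lists of regions, not replicated cultures. Sex was matched between genotypes according to the labels, but is not named in them.

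ATF3 is a basic leucine zipper (bZIP) protein of the ATF/CREB family that is induced by stress and by Toll-like receptor signals and often acts as a repressor. It binds DNA as a dimer, with itself or with partners such as Jun proteins, at AP-1 sequences and at the cAMP response element (CRE). In macrophages it is best known for restraining inflammatory cytokine genes.

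The sequences below carry the AP-1 element at HDL-only sites. They belong to named sites whose AP-1 lies close to the peak centre, read from the plus strand of NCBIM37, which is the mm9 assembly, with 27 bp on each side of the element. Capitals mark AP-1, TGACTCA or TGAGTCA. Each site is called by its nearest start site, so the gene need not be the regulated gene or the host gene.
2700029M09Rik, chr8:63338490-63338550: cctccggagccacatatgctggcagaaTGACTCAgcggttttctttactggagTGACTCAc
Osgin1, chr8:121949644-121949704: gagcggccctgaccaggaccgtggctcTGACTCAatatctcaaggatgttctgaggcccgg
Ctsb, chr14:63751259-63751319: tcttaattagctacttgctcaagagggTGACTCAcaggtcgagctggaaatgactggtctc
Olfr552, chr7:109746103-109746163: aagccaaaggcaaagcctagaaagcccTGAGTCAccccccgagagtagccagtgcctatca
Fam133b, chr5:3494499-3494559: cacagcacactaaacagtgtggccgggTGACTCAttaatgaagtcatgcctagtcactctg
Gm16998, chr10:53837781-53837841: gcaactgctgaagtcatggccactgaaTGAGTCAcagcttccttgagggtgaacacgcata
Irf8, chr8:123233224-123233284: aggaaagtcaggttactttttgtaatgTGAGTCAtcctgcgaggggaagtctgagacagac
Ctsd, chr7:149579216-149579276: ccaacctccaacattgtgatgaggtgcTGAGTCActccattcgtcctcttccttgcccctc
Fyb, chr15:6490210-6490270: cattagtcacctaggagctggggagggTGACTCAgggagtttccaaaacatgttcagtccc
Clec4d, chr6:123202918-123202978: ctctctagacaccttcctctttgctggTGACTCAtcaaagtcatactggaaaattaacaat
Socs5, chr17:87506183-87506243: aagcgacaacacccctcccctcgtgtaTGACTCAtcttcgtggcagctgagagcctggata

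The stretch near 2700029M09Rik holds a pair of AP-1 elements. In the Ctsd stretch the element is part of a Maf recognition element (MARE), the longer sequence that small Maf heterodimers bind. The Fyb stretch also matches the NF-kB pattern beside its AP-1.

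The CRE was more common at promoter sites than at other HDL-only sites, though AP-1 was still at more promoter sites (15 against 10 of 120). These 3 are the promoter sites whose CRE lies closest to the centre, chosen after their values were seen, and capitals mark TGACGTCA.
Psmb2, chr4:126354824-126354885: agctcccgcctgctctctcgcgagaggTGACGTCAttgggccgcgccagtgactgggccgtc
Ing3, chr6:21899499-21899560: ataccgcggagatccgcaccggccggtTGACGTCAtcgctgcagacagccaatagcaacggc
Dusp8, chr7:149281218-149281279: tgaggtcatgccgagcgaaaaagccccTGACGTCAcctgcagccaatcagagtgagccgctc

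For contrast, these are the central 101 bp of the 2 highest-scoring sites, neither of which holds AP-1 or CRE within 100 bp of the centre.
Oca2, chr7:63416435-63416535: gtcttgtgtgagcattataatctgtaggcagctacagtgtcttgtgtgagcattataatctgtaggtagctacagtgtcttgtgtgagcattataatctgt
Cdkn2aipnl, chr11:51735105-51735205: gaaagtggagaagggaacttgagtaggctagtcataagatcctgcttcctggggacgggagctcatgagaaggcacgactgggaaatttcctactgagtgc

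The highest-scoring HDL-only site thus lies on a tandem repeat that the deposited annotation does not name. Its central 201 bp match themselves at 98.2% of bases when shifted by 38 bp. Only 5 of the 1048 HDL-only windows matched themselves at 80% or more at any shift of 5 to 100 bp, and 7 of the 822 shared windows did. The other 4 HDL-only windows of this kind are nearest to Sec22c, Kcne2, 5031425F14Rik and 2810442I21Rik.

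HDL-only sites were of low to moderate signal. The MACS score, which the caller derives from the P-value of a peak, ran between 40.0 and 161.1 over them, with a median of 49.6. Each site held between 19 and 92 reads in the HDL WT library (median 41) and between 2 and 64 in the HDL KO library (median 23). After scaling to 10000000 reads, at which 1 read counts as 0.264 tags in WT and 0.151 tags in KO, the medians were 10.8 WT and 3.48 KO tags. The WT/KO ratio had a median of 3.16, with the middle 50% of sites between 2.61 and 4.03. Shared sites had a median score of 62.5, 14.0 WT tags, 4.69 KO tags and a WT/KO of 2.96. These values entered the choice of the sites and are given as a description.

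**Figure D1:**
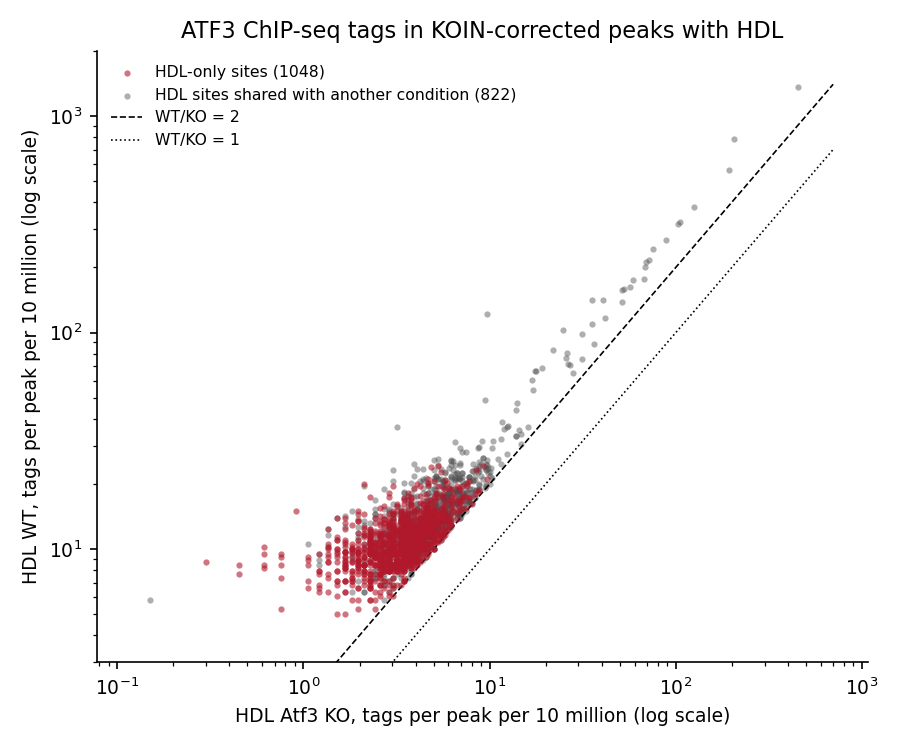
Each point is an off-repeat KOIN-corrected peak of HDL-treated macrophages, with its tags in the HDL WT library (vertical) and in the HDL KO library (horizontal), both per 10000000 reads on log axes. HDL-only sites (red, 1048) stay at or below 24.25 WT tags, while shared sites (grey, 822) reach 1359.9, and every point lies above the 2-fold line that the authors' filter set.

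The KO library was not empty at these sites. Every one of the 1048 sites had a counting interval of WT/KO above 1, while 412 (39.3%) had one wholly above 2. Among all 1870 off-repeat HDL peaks that share was 40.2%, so HDL-only sites did not stand apart from the list they were drawn from. At the lower edge 27 sites had a ratio under 2.1, and the lowest ratio was 2.00 (23 WT and 20 KO reads near Atp8b1). The highest was 28.7, with a wide interval of 7.35 to 247, at a site in an intron of Pde7b, 158 kb from the nearest start site, that of Mtfr2, which had 33 WT reads and 2 KO reads. A standard HDL peak, called without the KO library, overlapped 982 HDL-only sites (93.7%) and 798 shared ones (97.1%).

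HDL-only sites varied in their distance to the nearest peak of the other conditions. The median distance was 94.7 kb. A peak of another condition lay within 100000 bp of 540 sites (51.5%), within 10000 bp of 135 (12.9%) and within 1000 bp of 20 (1.91%). The rule removed all overlapping sites, and no distances of other regions were taken as background. Just inside the rule were the sites near Ncf1, a subunit gene of the phagocyte oxidase (19 bp from the nearest peak of another condition, 38 WT and 12 KO reads), the Chp1 promoter (24 bp, 25 WT and 15 KO reads) and Fyb (186 bp, 43 WT and 19 KO reads). Just outside were the HDL peaks near Ngly1 (1 bp of overlap, 35 WT and 20 KO reads), Cerk (33 bp, 34 WT and 26 KO reads) and Angptl2 (363 bp, 26 WT and 17 KO reads). The values on both sides of this limit were alike in size. Of the 822 shared sites, 663 overlapped a standard peak with HDL + CpG, 428 one of unstimulated cells, 360 a KOIN-corrected peak with HDL + CpG and 166 one of unstimulated cells.

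The same rule applied to the other conditions gave fewer sites. For HDL the share was 56.0% (Wilson 95% interval 53.8 to 58.3). With HDL + CpG, 474 of 998 off-repeat KOIN-corrected peaks were found in that condition only (47.5%, 44.4 to 50.6), and in unstimulated cells 134 of 398 were (33.7%). Depth of the KO library relative to WT differed between the conditions, at 1.74 with HDL, 0.960 with HDL + CpG and 2.03 unstimulated. The lists also differed in length. KOIN-corrected lists held 3044 peaks with HDL, 1232 with HDL + CpG and 595 unstimulated, and standard lists 5319, 3790 and 2779. HDL peaks were therefore compared with the fewest peaks of other conditions, and unstimulated peaks with the most. The part of depth and of list length in these shares was not tested.

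The highest-scoring HDL-only site lay in intron 48 of Herc2, a ubiquitin ligase gene, on chromosome 7 from 63415512 to 63417459, 78.7 kb from the start site of the melanosome transporter gene Oca2. It had 92 WT and 35 KO reads (24.3 and 5.30 tags), a WT/KO of 4.58 (3.07 to 6.96), at the tandem repeat printed above. An intergenic site 46.0 kb from Cdkn2aipnl followed, with 86 WT and 36 KO reads (4.16, 2.79 to 6.32). Intron 1 of Hivep3, which encodes a zinc-finger protein that binds NF-kB-like sequences, had 79 WT and 38 KO reads (3.62, 2.43 to 5.48). Intron 4 of the cell cycle kinase gene Cdk6 had 69 WT and 24 KO reads (5.01, 3.11 to 8.33), though the nearest start site there was that of Fam133b. None of these 4 sites had an AP-1 or CRE in its central window.

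Of the 15 highest-scoring sites 5 held AP-1, those near Cyb5r3, Zfp36, Gm16998, 9030404E10Rik and 2700029M09Rik. Zfp36 encodes tristetraprolin, which destabilizes cytokine mRNAs, and its site 3.89 kb from the start site had 91 WT and 32 KO reads (4.95, 3.28 to 7.66). Cyb5r3, a cytochrome b5 reductase gene, had 73 WT and 26 KO reads at 2.16 kb (4.89, 3.09 to 7.97). The site in 9030404E10Rik had the highest ratio of the 15, at 9.23 (4.65 to 20.4), from 53 WT and 10 KO reads. Gm16998 had 55 WT and 24 KO reads, and the site with a pair of elements 30.7 kb from 2700029M09Rik had 57 WT and 22 KO reads. Without AP-1 were the sites near Otud7b, a deubiquitinase of NF-kB signalling (61 WT and 29 KO reads), Drg1 (54 and 27), Epb4.1, the gene of the membrane skeleton protein 4.1 (50 and 30), Cdhr3 (56 and 19) and the pseudogene Gpr137b-ps (51 and 22). Reads at Gpr137b-ps are uncertain where it shares sequence with its parent gene.

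Promoter sites, 120 in all, were led by Rtn4, which encodes the reticulon Nogo, with 80 WT and 64 KO reads and the lowest ratio among the 15 highest-scoring sites (2.18, 1.55 to 3.07). The Ensa promoter, of a phosphatase inhibitor of mitosis, had 60 WT and 18 KO reads (5.81, 3.38 to 10.4). Per1, a core gene of the circadian clock, had 52 WT and 22 KO reads 48 bp from its start site (4.12, 2.46 to 7.12). At the promoter of Hgf, the growth factor that signals through Met, 64 WT and 24 KO reads gave 4.64 (2.86 to 7.77). Coq5, of ubiquinone synthesis, had 44 WT and 14 KO reads, Fdxr, the ferredoxin reductase of mitochondria, 68 and 42, the mitotic kinesin gene Kifc1 60 and 33, and 2410006H16Rik 88 and 56. None of these 8 promoters held AP-1 or CRE in its central window.

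By HOMER annotation 447 HDL-only sites were intronic (42.7%), 443 intergenic (42.3%), 120 at promoters (11.5%) and 38 elsewhere, and 176 lay in an intron 1. Among the 822 shared sites promoters made up 7.66%. The promoter share was 3.79 percentage points higher at HDL-only sites (interval 1.09 to 6.42, odds ratio 1.56), with p = 0.00609 by two-sided Fisher's exact test and an adjusted p of 0.116 over the 38 tests of motifs and position, so it did not pass. With repeats kept in, it did, at an odds ratio of 1.84 and an adjusted p of 0.00134 by the same exact test. Intergenic sites were at 42.3% against 47.3% (adjusted p = 0.169, same exact test), and introns were at 42.7% against 41.6% (adjusted p = 0.823, same exact test). The median distance to a start site was 18.95 kb for HDL-only and 23.3 kb for shared sites (adjusted p = 0.169, two-sided permutation test of medians, 100000 resamples). At scores of at least 100, which left 24 HDL-only sites, all 3 position classes turned in direction. GC content within 100 bp of the centre had the same median in both, 48.3%. Against HDL + CpG-only sites, with 14.3% at promoters, the share was 2.90 points lower (interval -6.78 to 0.64, adjusted p = 0.393, Fisher's exact test).

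The AP-1 element was the leading sequence of HDL-only sites. It lay within 100 bp of the centre of 305 of the 1048 (29.1%, Wilson 95% interval 26.4 to 31.9). In windows of the same 201 bp shifted by 1000 bp to either side the share was 4.25% (89 of 2096), and in a regular grid of windows every 100 kb of the genome 3.21%. The element was at a median of 41 bp from the centre, and 92 of the 305 sites had it within 25 bp. Shared sites had AP-1 in 30.2%, a difference of -1.07 points (interval -5.25 to 3.08, adjusted p = 0.823, Fisher's exact test). The interval thus reaches several points to either side of no difference, and the odds ratio, below 1 here, turned to 1.04 at scores of at least 60 and to 1.23 with repeats kept in.

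The shared sites were not alike among themselves, which bears on that comparison. This split was chosen after the values were seen, and its p-values were adjusted over the 8 tests so chosen. HDL-only sites held AP-1 in 29.1%, against 39.4% (183 of 464) of the shared sites that overlapped a KOIN-corrected peak of another condition, a difference of -10.3 points (interval -15.6 to -5.16, adjusted p = 0.000165 by Fisher's exact test). Against the shared sites that overlapped only standard peaks, with AP-1 in 65 of 358 (18.2%), HDL-only sites were 10.9 points higher (5.86 to 15.6, adjusted p = 7.79e-05 by Fisher's exact test). HDL-only sites thus stood between the shared sites that KOIN kept elsewhere and those that only the uncorrected lists held.

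Other elements were tested in the same way on both strands. The shifted windows, whose shares are in brackets, were not matched to the sites for GC content, repeats or promoter position. HDL-only sites held C/EBP, TTGCNNAA, in 15.5% (7.73% in shifted windows), the antioxidant response element (ARE) core, TGACNNNGC, in 12.9% (6.49%), and the PU.1 sequence GAGGAAGT in 8.30% (1.43%). PU.1 and C/EBP factors are the lineage factors of macrophages. The C/EBP-ATF composite TGATGCAA, which heterodimers of ATF4 or CHOP with C/EBP bind, was in 4.48% (0.906%), the MARE, TGCTGACTCA or TGCTGAGTCA, which contains AP-1 and can overlap the ARE, in 2.00% (0.239%), and CRE in 1.62% (0.239%). RUNX, TGTGGTTT, was in 3.34% (1.77%), the GC box GGGCGGGG in 3.53% (0.954%), MiT/TFE, TCACGTGA or TCATGTGA, in 2.67% (1.24%), KLF, CCACACCC, in 2.58% (1.77%), the ISRE of interferon factors in 2.77% (2.48%), and CTCF in 0.286% (0.143%). The LXR DR4 pattern, a site of oxysterol receptors, was in 0 of 1048 windows and in 0.0477% of shifted windows. By the Wilson upper bound a share of up to 0.365% remains possible, where 3 windows would be 0.286%. Among RefSeq promoter windows (GRCm38), which are longer than 201 bp, the GC box was in 17.6%, the ARE in 12.4% and PU.1 in 3.20%. None of the 15 motifs differed between HDL-only and shared sites by the adjusted p (lowest 0.393, Fisher's exact test).

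The NF-kB pattern was less common at HDL-only than at HDL + CpG-only sites. It was in 28 of 1048 HDL-only windows (2.67%, 1.86 to 3.83) and in 42 of 474 HDL + CpG-only windows (8.86%, 6.62 to 11.8). This was the only one of the 38 tests that passed. The difference, HDL-only minus HDL + CpG-only, was -6.19 points (interval -9.20 to -3.67), with an odds ratio of 0.282 and an adjusted p of 1.65e-05 by Fisher's exact test. In shifted windows the pattern was in 1.81%, at shared HDL sites in 3.16% and at sites found only in unstimulated cells in 3.73% (5 of 134). HDL-only sites were thus near these sets, and the high share was that of HDL + CpG-only sites. Among RefSeq promoter windows (GRCm38), which are longer than the 201 bp used at the sites, it was 4.51%. Promoters left out, the shares were 2.69% and 9.36% (adjusted p over the 8 later tests 5.94e-06, Fisher's exact test). The 28 sites included those near Hivep3, Fyb, Dusp1, Cited2 and the promoter of Casp4, an inflammatory caspase gene, where the match sat on the centre of the peak, all chosen here for their match. At scores of at least 60 the same comparison was 4.89% of 266 against 9.64% of 83 and did not pass (adjusted p = 0.862, Fisher's exact test). No other motif or position class differed between the 2 sets by the adjusted p, AP-1 at 29.1% against 35.7% included (adjusted p = 0.137, Fisher's exact test).

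**Figure D2:**
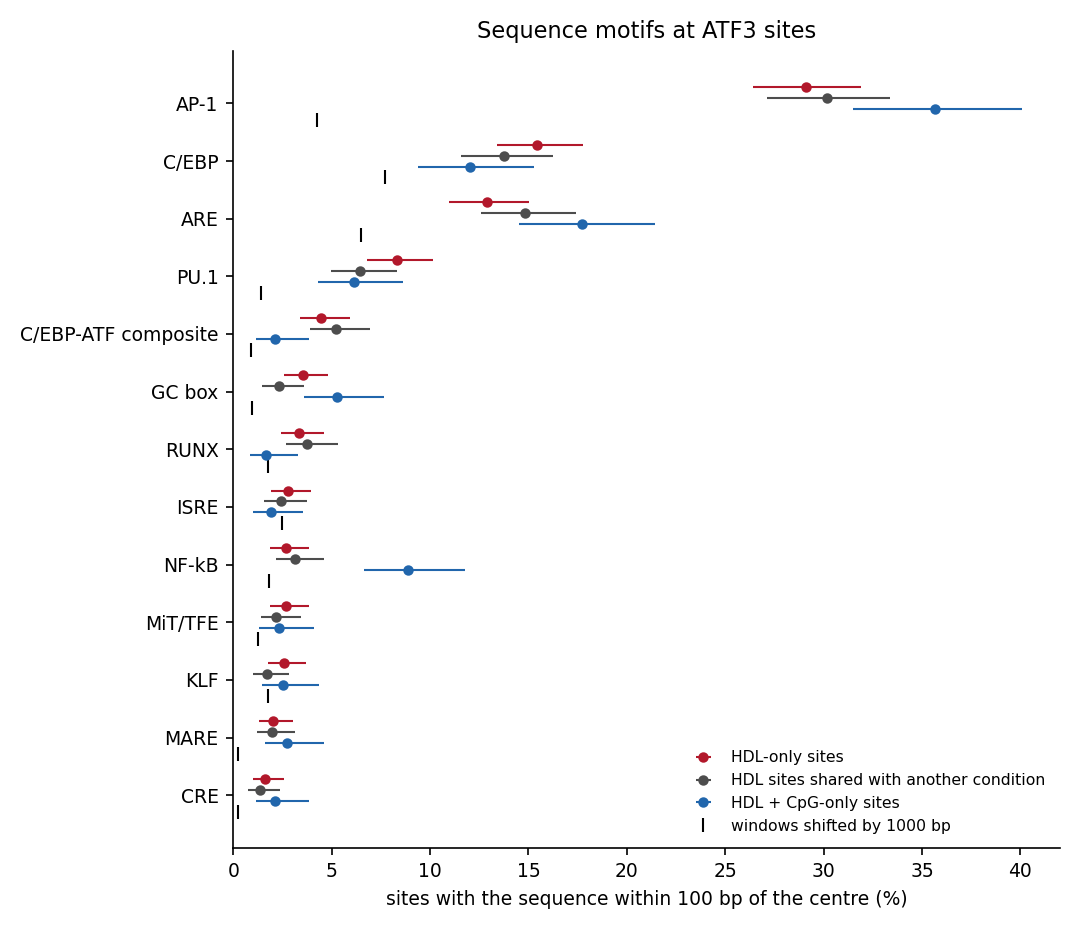
Percentage of sites holding each sequence within 100 bp of the peak centre, for HDL-only (red), shared HDL (grey) and HDL + CpG-only sites (blue). Bars are Wilson 95% intervals and black ticks the share in the HDL-only windows shifted by 1000 bp. AP-1 leads in all 3 sets, and NF-kB stands at 2.67% of HDL-only against 8.86% of HDL + CpG-only sites.

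AP-1 and CRE divided along the distance to the gene. Of the 120 promoter sites 15 held AP-1 (12.5%), against 290 of the 928 other HDL-only sites (31.3%), a difference of -18.8 points (-24.4 to -11.1, adjusted p = 2.44e-05 over the 8 later tests, Fisher's exact test). CRE went the other way, with 10 of 120 promoter sites (8.33%) and 7 of 928 others (0.754%), a difference of 7.58 points (3.75 to 13.9, adjusted p = 1.05e-05, Fisher's exact test). Among RefSeq promoter windows 1.79% hold a CRE and 5.20% an AP-1, but those windows are longer than the 201 bp used at the sites. The GC content of the promoter sites was higher, with a median of 57.2% against 47.3% at intronic sites. Shared promoter sites held AP-1 in 10 and CRE in 3 of 63.

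The CRE promoters belonged to genes of varied roles. Psmb2, a proteasome subunit gene, had 30 WT and 12 KO reads (4.35, 2.16 to 9.34). Dusp8, a phosphatase gene of stress-activated kinases, had 31 WT and 4 KO reads (13.5, 4.77 to 52.6). Hsp90ab1, of the chaperone HSP90, had 54 WT and 22 KO reads and an AP-1 as well (4.27, 2.56 to 7.37). The lysosomal glucuronidase gene Gusb had 31 WT and 26 KO reads, Ing3 29 and 16, Pinx1 37 and 11, Noc4l 30 and 12, Aasdh 44 and 34, C130046K22Rik 38 and 15, and Clcn4-2, a chloride channel gene, 49 and 41. All 10 were selected for the match.

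**Figure D3:**
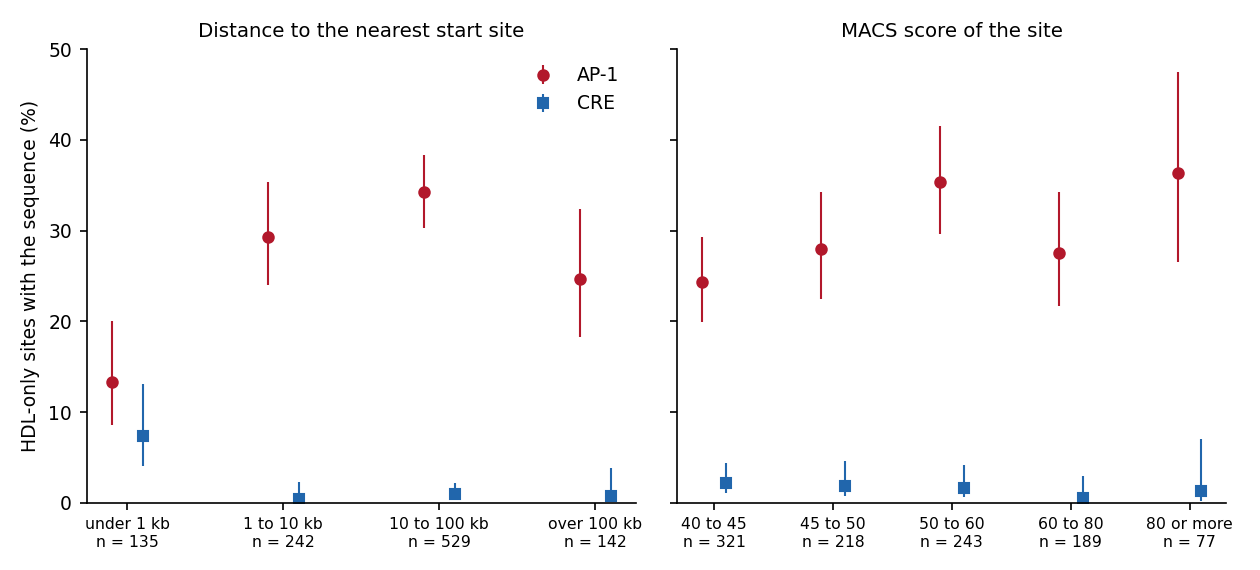
Share of the 1048 HDL-only sites (%) with AP-1 (red circles) and CRE (blue squares) by distance to the nearest start site (left) and by MACS score (right), with Wilson 95% intervals and the number of sites under each class. AP-1 is lowest within 1 kb of a start site (13.3%), where CRE is highest (7.41%).

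The share with AP-1 was 34.2% at 10 to 100 kb from a start site and 24.6% beyond. By score, with limits at 45, 50, 60 and 80, it was 24.3%, 28.0%, 35.4%, 27.5% and 36.4% in classes of 77 to 321 HDL-only sites, and 22.95%, 38.9%, 32.9%, 32.7% and 25.7% in shared sites. Neither set changed steadily with the score. By WT/KO it was nearly flat, at 27.6% of sites between 2 and 2.5 and 29.2% of sites at 4 or more. These strata are descriptions.

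Sites nearest to the same gene recurred to a small extent. The 1048 sites were nearest to 960 genes, of which 81 had 2 or more sites and 6 had 3 or more. Among genes nearest to any off-repeat HDL peak, 60.2% had an HDL-only site, which is the background for the counts below. Of the 960 genes, 384 (40.0%) also had a peak of another condition at another place in any list, standard lists included, and 576 did not. A KOIN-corrected peak of another condition was at 231 of them (24.1%). For these 384 genes the HDL-only site was not the only called peak. These counts describe the 960 genes only, with no share over all genes beside them. Cited2, which encodes a partner of the coactivators CBP and p300, had 4 sites. One lay at its promoter (35 WT and 22 KO reads) and the others at 67.1, 134 and 201 kb, with ratios of 3.48, 4.79 and 5.66. Tgfbr2, the gene of the TGF-beta type II receptor, had 3 sites and no peak of another condition. The site 3.0 kb from its start had 72 WT and 41 KO reads (3.06, 2.06 to 4.60), and those at 191 and 201 kb 38 and 39 WT reads. Fyb, an adaptor of integrin signalling, had 3 sites within 39.6 kb, with 57, 67 and 43 WT and 23, 28 and 19 KO reads. Klf4, Cxcr4 and Fam133b also had 3 each. The Cxcr4 sites, of a chemokine receptor gene, were clustered 112.9 to 129.9 kb away, with ratios of 4.09, 3.98 and 2.58, and the Fam133b sites all lay in intron 4 of Cdk6, with 7.66 (4.33 to 14.5) the highest, from 66 WT and 15 KO reads at the AP-1 printed above.

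Genes were grouped by lists, chosen with earlier results of these data known. Of all named genes 2.79% were nearest to an HDL-only site, and of the genes in macrophage-related lists between 2.86% and 23.3%. That background also counts pseudogenes. The share among genes with any off-repeat HDL peak, 60.2% over all genes, is the closer background. Its counts are given with each list. Macrophage-related lists lay on both sides of it, from 16.7% (endoplasmic reticulum stress) to 77.8% (interferon regulatory and STAT genes). No set test was made.

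**Figure D4:**
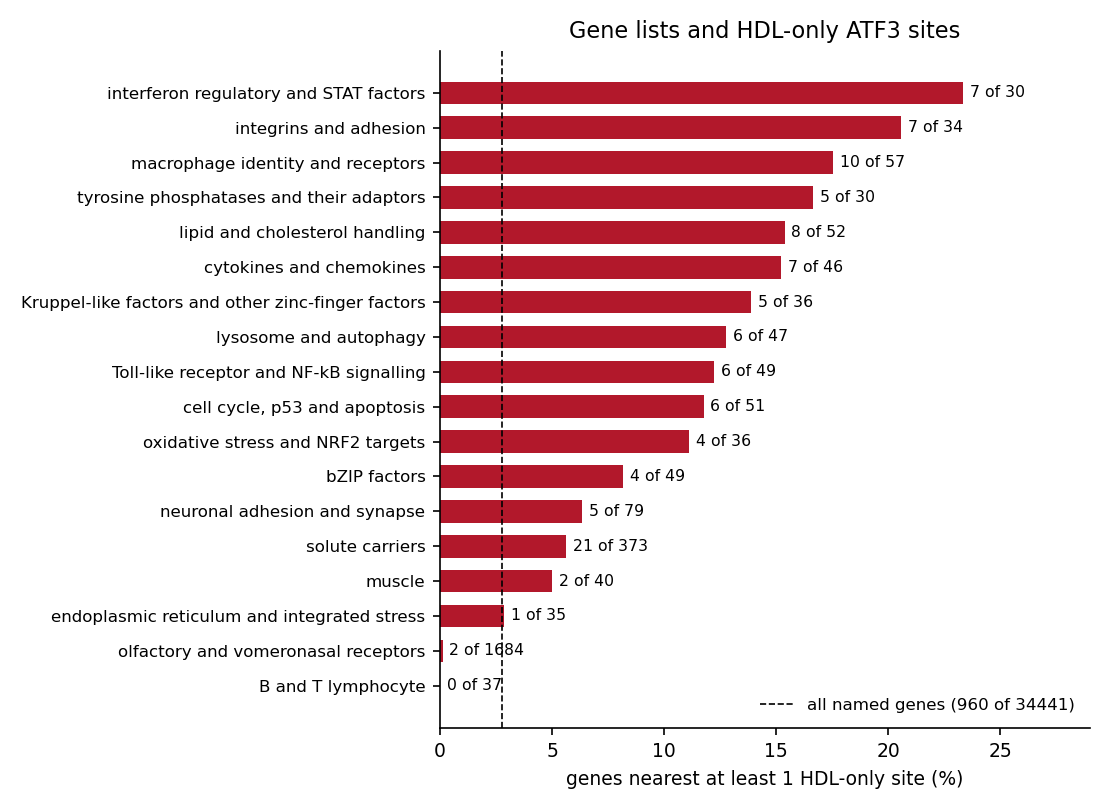
Share of the genes of each list described (%) that are nearest to at least 1 HDL-only site, with the counts beside the bars. The dashed line is the share of all named genes, 960 of 34441 (2.79%). Of the lists drawn, interferon regulatory and STAT genes stand highest with 7 of 30, of which 2 have a site within 10 kb of the start site. B and T lymphocyte genes have 0 of 37, and only 1 of those 37 has any off-repeat HDL peak.

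Lipid and cholesterol genes had 8 of 52 with an HDL-only site, out of 12 with any off-repeat HDL peak (66.7%). Pltp, the phospholipid transfer protein that remodels HDL particles, had 72 WT and 38 KO reads 4.87 kb from its start (3.30, 2.20 to 5.03). Trib1, a pseudokinase gene linked to plasma lipids and macrophage differentiation, had a site in its intron 1 with 61 WT and 29 KO reads (3.66, 2.32 to 5.91). A further site assigned to Trib1 lay 96.0 kb away in Nsmce2, with 60 and 21 reads. The remaining genes of the list were Pparg, the nuclear receptor of lipid uptake (intron 1, 34 WT and 7 KO reads, 8.46, 3.69 to 22.6), the sterol regulator Srebf2 (promoter, 42 and 17 reads), the acid lipase gene Lipa (37 and 11), the cholesteryl ester hydrolase gene Nceh1 (45 and 27), the cholesterol exporter gene Abcg1 (34 and 21) and Pcyt1a of phosphatidylcholine synthesis (47 and 32). None of these 9 sites held AP-1 in its central window.

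Of the cytokine and chemokine genes 7 of 46 had a site, out of 12 with any off-repeat HDL peak (58.3%). Il6, the gene of an inflammatory cytokine, had 61 WT and 41 KO reads at a distance of 64.8 kb (2.59, 1.72 to 3.95). The site near Cxcl2, which attracts neutrophils, had 65 and 33 reads at 5.25 kb (3.43, 2.22 to 5.39). The site assigned to Cxcl11 lay in intron 2 of Art3, with 56 and 25 reads. The rest were the promoters of Ccl4 (41 and 26) and of the IL-23 subunit gene Il23a (43 and 33), the 3′ UTR of Osm (38 and 29) and a site near Lif with AP-1 (32 and 16).

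Toll-like receptor and NF-kB genes had 6 of 49 with a site, out of 12 with any off-repeat HDL peak. The promoter of Cd14, a co-receptor for lipopolysaccharide, had 49 WT and 20 KO reads (4.27, 2.49 to 7.58). Intron 1 of Nfkbib, which encodes the inhibitor IkB beta, had 37 and 14 reads (4.60, 2.43 to 9.22). The others were Otud7b, Traf3, Map3k8 and Ikbke, with ratios of 3.66, 2.97, 2.72 and 4.25, of which the Traf3 site held an AP-1 3 bp from its centre and the Ikbke site lay in an intron of Srgap2. Negative regulators and activators of the pathway were thus both among the nearest genes.

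Macrophage identity genes had 10 of 57 with a site, out of 22 (45.5%). Clec4d, a C-type lectin receptor gene, had 80 WT and 31 KO reads 9.21 kb from its start, at the AP-1 printed above (4.49, 2.94 to 7.04). The promoter of Sirpa, the receptor for the CD47 signal, had 46 and 16 reads (5.01, 2.78 to 9.48). Irf8, a lineage factor of monocytes, had 39 and 20 reads 27 kb away, also with AP-1. Cebpa, Mitf, Runx1, Lyz2, Ccr2, Cd9 and Cd14 complete the list. At the promoter of Lyz2, the lysozyme gene, 45 WT and 15 KO reads gave 5.22 (2.86 to 10.1).

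Among bZIP genes 4 of 49 had an HDL-only site, out of 12 (33.3%), below the share over all genes. The site nearest to Atf3 itself lay 65.3 kb away, with 44 WT and 24 KO reads (3.19, 1.90 to 5.49). Nfe2l1, an activator of proteasome genes, had 47 and 20 reads, Cebpa 59 and 26, and Batf 65 and 51, and none of the 4 sites held AP-1. Endoplasmic reticulum stress genes had 1 of 35, out of 6 with any off-repeat HDL peak (16.7%), the promoter of the glutathione-degrading enzyme gene Chac1 (44 and 27 reads, 2.84, 1.72 to 4.77). Oxidative stress genes had 4 of 36, out of 8 with any off-repeat HDL peak. They were Hmox1, of haem breakdown, at its promoter (37 and 16 reads, 4.03, 2.19 to 7.75), Osgin1 with a promoter and a distal site, both with AP-1 (36 and 22, 38 and 29 reads), Ncf1 and Slc7a11.

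Of integrin and adhesion genes 7 of 34 had a site, out of 13 with any off-repeat HDL peak (53.8%). The promoter of Itgb1, the integrin beta 1 gene, had 40 WT and 9 KO reads (7.74, 3.70 to 18.1). Sites with AP-1 lay in intron 1 of Itgb5 (48 and 22 reads) and 9.35 kb from Itgav (36 and 19 reads), which encode the alpha V beta 5 integrin.

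Interferon regulatory and STAT genes had 7 of 30 with a site, out of 9 (77.8%), the highest share of genes with an off-repeat HDL peak in any list described here. That share rests on few genes. Only 2 of the 7 had a site within 10 kb of the start site, and Irf8 is also counted among the macrophage identity genes. The Socs5 promoter, of a suppressor of cytokine signalling, had 38 WT and 25 KO reads and AP-1 (2.65, 1.56 to 4.58). Intron 7 of Irf2, 103 kb from its start, had 35 and 7 reads (8.71, 3.81 to 23.2). Of the genes of tyrosine phosphatases and their adaptors 5 of 30 had a site, out of 8 (62.5%). Among them were Dusp1, which inactivates MAP kinases (45 and 31 reads), the leukocyte phosphatase gene Ptprc (39 and 19) and the adaptor gene Gab2 (44 and 30). Lysosome and autophagy genes had 6 of 47, out of 11 (54.5%), with AP-1 at the cathepsin genes Ctsb (55 and 31 reads, 3.09, 1.95 to 4.97) and Ctsd (45 and 28 reads), and a site in intron 1 of Mitf (47 and 28), a regulator of lysosome genes.

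Cell cycle genes had 6 of 51, out of 13 (46.2%), among them Myc, with 65 WT and 25 KO reads 14.5 kb away (4.53, 2.82 to 7.5), and Gadd45g (45 and 26). Krüppel-like and other zinc-finger genes had 5 of 36, out of 11 (45.5%). They include intron 1 of Klf3 (45 and 16 reads, 4.90, 2.72 to 9.28) and, 2.20 kb from its start, Klf4 (39 and 14, 4.85, 2.58 to 9.67). Solute carriers had 21 of 373, out of 34 (61.8%), led by the iron transporter gene Slc25a28 (66 and 52 reads). Of the lists of other cell types, neuronal genes had 5 of 79, out of 9 with any off-repeat HDL peak (55.6%). They were led by Dscam with sites of 75 and 52 WT reads in intron 1. By this closer background the neuronal share was above that of macrophage identity genes (45.5%) and below the 60.2% over all genes. Muscle genes had 2 of 40 (Acta1 and Mylk2), out of 4, and lymphocyte genes 0 of 37, out of 1. Olfactory and vomeronasal receptor genes had 2 of 1684, out of 5 (40.0%). These 2 were Olfr1200 and Olfr552, with ratios of 3.57 and 5.11, and the site near Olfr552 has AP-1 within 9 bp of its centre.

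Hardly any HDL-only site lay on the X chromosome. It carried 3 of the 1048, near Klhl4, Phka2 and Gm8817, which is 1.80 sites per 100 Mb, while the autosomes ran from 28.8 on chromosome 3 to 67.3 on chromosome 11. Of the shared sites 11 of 822 were on X. The difference, -1.05 points (-2.11 to -0.244), was tested after it was seen (adjusted p = 0.0167 over the 8 later tests, Fisher's exact test). HDL + CpG-only sites had 2 of 474 on X. Of the standard HDL peaks off repeats 58 of 2817 were on X (2.06%). Their median WT/KO was 1.08 on X and 2.60 on autosomes, with 29.7 WT and 28.8 KO tags on X against 11.6 and 4.54 on autosomes. A ratio of 2 or more was reached by 13 of the 58 X peaks (22.4%) and by 75.2% of the autosomal ones, and the part of this in the low count of HDL-only sites on X was not tested.

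**Figure D5:**
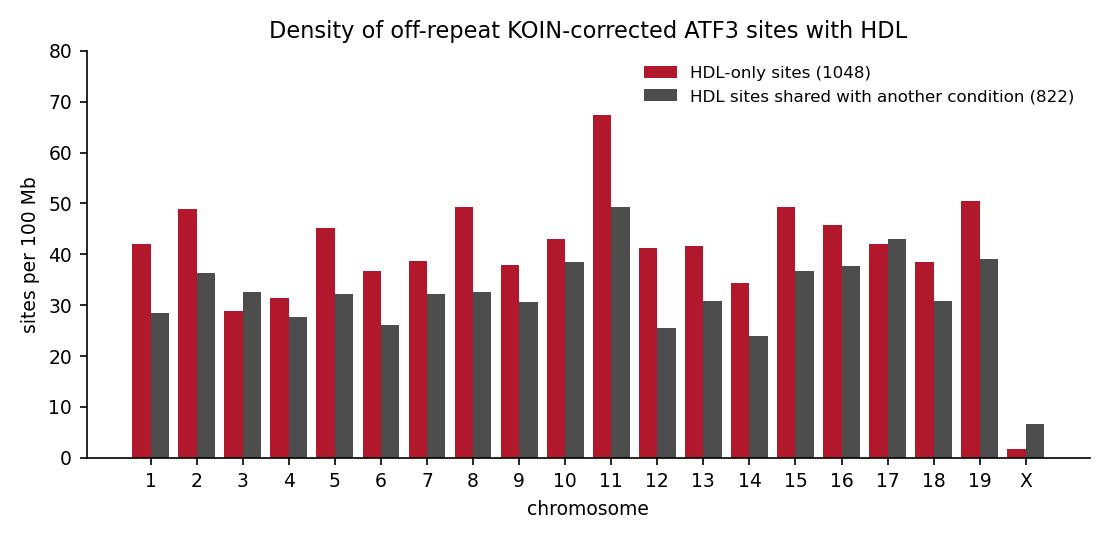
Number of off-repeat KOIN-corrected ATF3 sites with HDL per 100 Mb of each chromosome (NCBIM37), for HDL-only (red) and shared sites (grey). Chromosome 11 has the highest density of HDL-only sites (67.3), and X the lowest (1.80, against 6.60 for shared sites).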

How the data were processed

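ATF3 ChIP-seq was analysed from 6 annotated lists of peaks. Each condition has a list called on WT alone (standard) and one corrected by KOIN. As the labels and methods state, the authors ran CASAVA 1.8, aligned reads to mm9 with Bowtie 0.12.8, called peaks with MACS 1.4.2 (the methods name other releases) and annotated them with HOMER 4.3. For KOIN-corrected lists the KO library was the control of the peak caller, and peaks under a WT/KO of 2 were removed. The deposited MACS score of each peak was used as given. The signal columns deposited by the authors hold WT and KO tags per 10000000 reads. Read numbers were recomputed from these and the library totals of the headers, to within 0.005 tags, and WT/KO intervals are exact binomial at 95%. The authors' own WT/KO fold column and the list of barcodes were not used, and 0 columns of per-sample values were left out.

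HDL-only sites share not even 1 bp with any of the 4 lists of the other conditions. Motifs were searched on both strands within 100 bp of the peak centre in the NCBIM37 genome. Fisher's exact test (two-sided) served for shares and a permutation test for medians (100000 resamples), with Benjamini-Hochberg adjustment over 38 tests and a threshold of 0.05. A further 8 tests were chosen after the values were seen and adjusted among themselves. Differences between shares have Newcombe intervals. Because groups are single pooled libraries, no count model was fitted. The scripts were tested on artificial data with known answers and used scipy 1.17.1 with numpy 2.4.6, and pysam 0.24.0, pandas 2.3.3 and matplotlib 3.10.9 under Python 3.11.15.

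Named sites are the 15 highest-scoring ones, the 8 highest-scoring promoter sites, up to 3 per gene list within 100 kb of a start site, those of the 8 genes with most sites, and the 3 closest on either side of the overlap limit. Other names were chosen after their values were seen. The members and gene lists were chosen with earlier results of these data known. A further gene list is not reported here. Host genes and promoter shares come from RefSeq (GRCm38), with host genes matched by transcript name only. The alternatives tried were other score minimums, overlap rules, comparison lists, motif windows, promoter definitions and gene distances, the inclusion of repeats, autosomes only, standard-peak support and an added pseudocount of 1 tag.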

Additional observations from a re-analysis of the deposited data

How the results depend on the processing

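No paired analysis was possible because each group is 1 pooled library without replicate numbers, and for the same reason no replicate could be left out and no sample tested for standing apart. The number of HDL-only sites was 266 at scores of at least 60, 24 at scores of at least 100 and 1574 with repeats kept in. With repeats in, 3 comparisons with shared sites passed that otherwise did not: promoters (odds ratio 1.84, adjusted p = 0.00134 by Fisher's exact test), distance to the start site (-7.68 kb, adjusted p = 0.00134 by permutation test) and GC content (-0.746 points, adjusted p = 0.0456 by permutation test). AP-1 against shared sites passed with an odds ratio of 0.548 when only KOIN-corrected lists defined sharing (adjusted p = 6.05e-06, Fisher's exact test). The NF-kB odds ratio against HDL + CpG-only sites no longer passed at scores of at least 60 (0.482, adjusted p = 0.862, Fisher's exact test) and of at least 100 (0.174, adjusted p = 1, Fisher's exact test, 24 HDL-only sites). The stricter scores left fewer sites to test, and the other causes were not tested. The NF-kB odds ratio ran from 0.174 to 0.482 over all 11 alternatives, which were added after the data were seen. Direction turned in 8 of the 55 tested values other than GC, none of which passed before or after. These were odds ratios against shared sites. For AP-1 it was 1.04 at scores of at least 60, 1.52 at scores of at least 100 and 1.23 with repeats in. At scores of at least 100 promoters were at 0.744, introns at 0.743 and intergenic sites at 1.43. With only KOIN-corrected lists introns were at 0.847 and intergenic sites at 1.07. In 42 of the 55 direction and side of the threshold stayed. The median GC content did not differ, so it had no direction to keep. Of 42 gene list counts 28 stayed within 1.5 times, and the 14 others fell because sites were restricted by distance to the start site. Depth limits the single site, with a median of 41 WT and 23 KO reads.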
